A study of Homo sapiens with 2 samples.

Results

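The solute carrier (SLC) genes described here are the members of the numbered SLC families outside the mitochondrial carrier family SLC25. They were chosen by name: an SLC family number followed by the letter A and a member number, with SLC25A genes left out. Of the 11619 genes listed in both libraries, 110 met this rule. The cells were NB4, a human acute promyelocytic leukemia line that carries the PML/RARα fusion. All cells were infected with a lentiviral pLVX-shRNA2 vector marked by ZsGreen1, which carried either an shRNA against the long noncoding RNA CRNDE (sh-CRNDE) or a non-targeting control shRNA (sh-Control), and RNA was taken on day 3 after infection. The sources used here do not say which CRNDE shRNA was in the sequenced cells. Each group is 1 library, so no difference has a replicate check and none was tested.

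SLC proteins are membrane carriers that move nutrients, ions, metals and metabolites across the plasma membrane and organelle membranes. Some exchange one substrate for another, some use the sodium or proton gradient, and others let their substrate pass down its own gradient. Several work only with a partner protein that brings them to the surface. In leukemia cells they supply the amino acids, folate, nucleosides and metals that dividing cells take up, and some also carry antileukemic drugs.

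Levels are given in FPKM, a scale on which fragment counts are divided by transcript length and library size. Changes are differences of log2(FPKM + 1), sh-CRNDE minus sh-Control, a scale that understates the change of genes with low values. A gene is called higher or lower when FPKM + 1 differed by more than 1.5-fold. CRNDE itself was at 5.92 FPKM in sh-Control and 1.85 in sh-CRNDE, a change of -1.28, and the reference gene GAPDH was at 942 and 785 FPKM. Of 7 promyelocyte markers 6 were listed, with a summed level of 1405 FPKM in sh-Control and 822.3 in sh-CRNDE, and MPO, the granule myeloperoxidase, made up most of it with 1135 and 738 FPKM. CEBPE, a transcription factor of later granulocyte differentiation on the same list, went the other way, from 0.748 to 8.75 FPKM. Of 18 markers of other cell types 7 were listed, none above 4.82 FPKM, and their sum was 9.66 FPKM in sh-Control and 9.63 in sh-CRNDE. None of the 3 erythroid markers was listed. In bulk RNA, fewer cells of a type and less RNA per cell cannot be told apart. The depth of the libraries is unknown, because the files give FPKM without read counts.

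More of the carrier genes were lower than higher after CRNDE knockdown. Of the 110 genes, 22 (20%) passed 1.5-fold, against 17.2% of all genes. Lower calls made up 15 (13.6%), against 8.83% of all genes, and higher calls made up 7 (6.36%), against 8.38% of all genes. The median change was -0.11, with quartiles of -0.42 and 0.13, while the median over all genes was -0.01. At any size, 68 carriers had the lower value in sh-CRNDE and 42 (38.2%) had the higher, against 49.2% of all genes with the higher. The share of lower calls was above that of all genes and the share of higher calls below it. These differences were not tested, and nothing is called particular to the carriers from them.

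**Figure D1:**
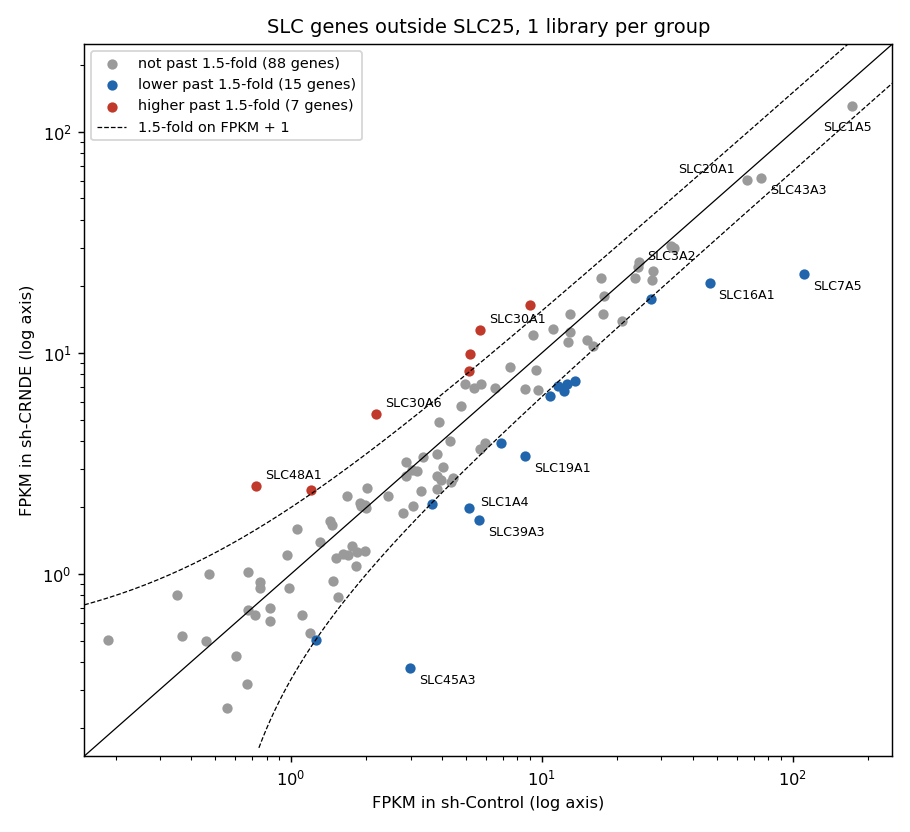
FPKM of each of the 110 SLC genes in sh-Control (horizontal, log axis) against sh-CRNDE (vertical, log axis), 1 library per group, with the line of equality and dashed lines at 1.5-fold on FPKM + 1. The 15 lower genes include SLC7A5 and SLC16A1, which were among the 5 most abundant in sh-Control, while the 7 higher genes were all below 10 FPKM in sh-Control.

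The carriers were expressed over a wide range, from 0.186 to 172 FPKM in sh-Control, and in sh-CRNDE from 0.249 to 130.9. None was listed at 0, and 86 reached 1 FPKM in both libraries. Their summed level was 1162 FPKM in sh-Control against 920.1 in sh-CRNDE. The libraries stood apart in ribosomal RNA, since the mitochondrial MT-RNR2 was listed at 0 in sh-Control and reached 27614 FPKM in sh-CRNDE. Without it the carriers made up 0.823% and 0.644% of the summed FPKM of all genes. The 5 most abundant in sh-Control were SLC1A5, SLC7A5, SLC43A3, SLC20A1 and SLC16A1, which held 40.5% of the summed level of the 110 carriers. In sh-CRNDE SLC7A5 and SLC16A1 had left this group, and SLC1A5, SLC43A3, SLC20A1, SLC38A2 and SLC7A1 held 34.05% of the carriers' sum. Across the 110 genes the log2(FPKM + 1) levels of both libraries had a Pearson correlation of 0.946. The points share their library and are not independent, so the value is a description.

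The counts of each substrate class stand beside shares over all genes of 8.38% higher and 8.83% lower. Among the carriers of amino acids and peptides, 3 of 22 were lower (13.6%) and none was higher. The median change of these 22 genes was -0.17. In sh-CRNDE 17 of them had the lower value and 5 (22.7%) the higher, against 49.2% of all genes with the higher. Their summed level was 489.7 FPKM in sh-Control against 329.5 in sh-CRNDE, and their share of the sum of all 110 carriers was 42.1% and 35.8%.

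SLC7A5, the light chain of the LAT1 exchanger for leucine and other large neutral amino acids, had the largest change of all 110 carriers on this scale. With a pseudocount of 0.1 the change of the low-level gene SLC45A3 was larger, -2.69 against -2.28. SLC7A5 was at 111.3 FPKM in sh-Control and 22.9 in sh-CRNDE, a change of -2.24 or 4.71-fold on the FPKM + 1 scale. Among all genes 0.620% had a lower change. In the order of carrier levels SLC7A5 went from rank 2 to rank 9. The gene lies at chr16:87830023-87869507 on the minus strand of GRCh38 and its canonical transcript has 10 exons. SLC3A2, the heavy chain that brings SLC7A5 to the plasma membrane, was at 24.2 and 24.4 FPKM. The FPKM ratio of SLC7A5 to SLC3A2 was 4.61 in sh-Control and 0.935 in sh-CRNDE, which is a ratio of RNA, as the proteins were not measured.

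SLC1A4, the sodium-dependent exchanger of alanine, serine and cysteine known as ASCT1, was at 5.14 FPKM in sh-Control and 1.995 in sh-CRNDE, a change of -1.03. SLC7A2, the cationic amino acid transporter that takes up arginine and lysine, was at 11.6 and 7.09 FPKM, a change of -0.64. SLC1A5, the glutamine carrier ASCT2, was the most abundant carrier in both libraries, at 172 and 130.9 FPKM. Its change of -0.39 was inside 1.5-fold. Of its transcript 27.1% lies opposite exons of ENSG00000275719, and without strand the reads of that stretch cannot be told apart. Glutamine taken up by ASCT2 can serve as the exchange substrate of LAT1, and the FPKM ratio of SLC1A5 to SLC7A5 was 1.55 in sh-Control and 5.73 in sh-CRNDE. SLC7A1, the arginine carrier CAT1, changed by -0.16 from 33.6 to 29.9 FPKM. SLC38A2, which takes up small neutral amino acids with sodium, changed by -0.11 from 32.8 to 30.4 FPKM. Its relatives SLC38A1 and SLC38A5 were at 20.8 and 27.5 FPKM in sh-Control, with 14.0 and 21.4 in the knockdown and changes of -0.54 and -0.35. SLC7A11, the cystine-glutamate exchanger, was at 3.19 and 2.92 FPKM. All of these carriers were thus inside 1.5-fold except SLC7A5, SLC1A4 and SLC7A2.

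Carriers of metals and heme held 5 of the 7 higher genes. Of 23 listed, 5 were higher (21.7%) and 2 were lower (8.70%), against 8.38% and 8.83% of all genes. The difference from all genes was not tested, and the median change was -0.04. The median GC content of these 23 transcripts was 44.1%, against 52.5% for all carriers, and its part in the higher calls was not tested. With GC bin medians subtracted, as described with base composition, the 5 higher genes had changes between 0.62 (SLC39A10) and 1.21 (SLC48A1). The summed level of the 23 genes was 155.8 FPKM in sh-Control against 173.2 in sh-CRNDE, from 13.4% to 18.8% of the sum of all carriers. That sum itself fell from 1162 to 920.1 FPKM, which raises the share too. Apart from the heme carrier, the genes past 1.5-fold were in the zinc families. Most SLC30 proteins (ZnT) move zinc out of the cytosol, and the SLC39 proteins (ZIP) move zinc and some other metals into it.

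SLC30A1, the zinc exporter of the plasma membrane, was at 5.69 FPKM in sh-Control and 12.7 in sh-CRNDE, a change of 1.03. SLC30A6, which pairs with SLC30A5 to load zinc into the secretory pathway, was at 2.18 and 5.28 FPKM, a change of 0.98. SLC30A5 itself was at 13.0 and 14.95 FPKM, inside 1.5-fold. Of the 5 listed SLC30 genes, these 2 were higher and none was lower. SLC30A9 was at 17.2 and 21.8 FPKM and SLC30A7 at 1.84 and 1.26 FPKM, with changes of 0.32 and -0.33.

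The SLC39 genes went both ways, with 2 of 11 higher and 2 lower. SLC39A8, which carries zinc and manganese, was at 5.18 FPKM in sh-Control and 9.92 in sh-CRNDE, a change of 0.82. SLC39A10, a plasma membrane zinc importer, was at 8.998 and 16.4 FPKM, a change of 0.80. SLC39A6, a close relative of SLC39A10 that forms a complex with it, was at 12.7 and 7.27 FPKM, a change of -0.72. The FPKM ratio of SLC39A6 to SLC39A10 was 1.41 in sh-Control and 0.443 in sh-CRNDE, so the order of this pair was opposite in the libraries. SLC39A3, another zinc importer, was at 5.62 and 1.76 FPKM, a change of -1.26. In the annotation 29.6% of its canonical transcript is shared with a gene without a symbol, ENSG00000267001, on the same strand, so its level is uncertain. The remaining 7 SLC39 genes had changes between -0.35 for SLC39A13 and 0.33 for SLC39A11. SLC39A7, which releases zinc from the endoplasmic reticulum, was the most abundant of the family at 24.4 and 25.8 FPKM. SLC39A1 was at 17.7 and 18.1 FPKM, but 95.9% of its transcript is shared with a readthrough gene, ENSG00000285779, and its level is uncertain too.

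**Figure D2:**
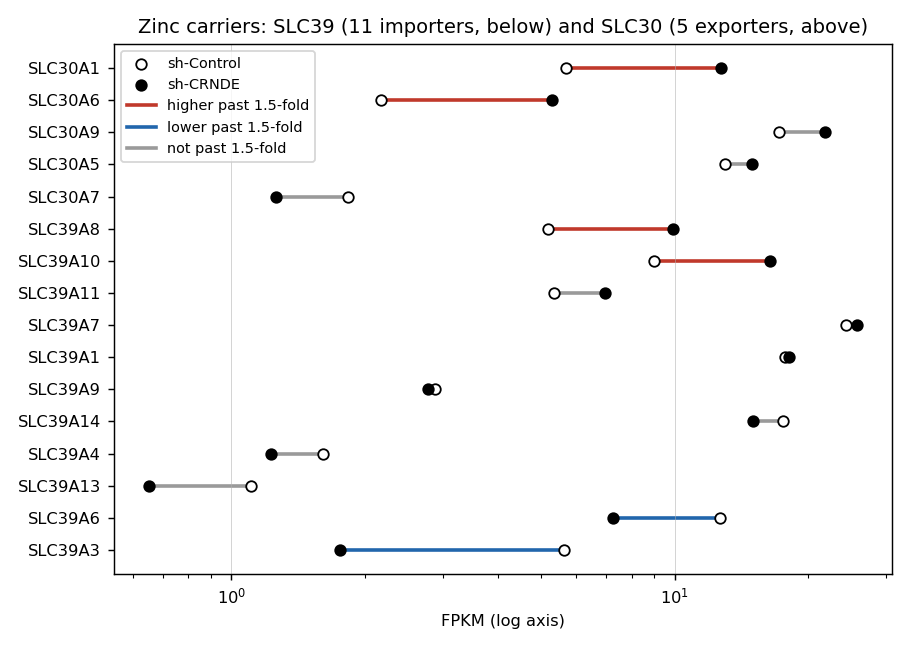
FPKM (log axis) of the 5 SLC30 and 11 SLC39 genes in sh-Control (open circles) and sh-CRNDE (filled circles), 1 library each. SLC30A1 and SLC30A6 were higher, and the SLC39 genes were split between 2 higher, 2 lower and 7 inside 1.5-fold.

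SLC48A1, the heme carrier of endosomes and lysosomes, was at 0.723 FPKM in sh-Control and 2.49 in sh-CRNDE, a change of 1.02. The iron carriers were inside 1.5-fold on this scale. SLC11A2, the proton-coupled importer of ferrous iron, was at 3.83 and 2.42 FPKM, and SLC40A1, the iron exporter ferroportin, was at 2.80 and 1.90 FPKM. Their changes were -0.50 and -0.39. SLC31A1, the copper importer CTR1, was at 1.43 and 1.74 FPKM.

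Other metal genes were counted beside the metal carriers. Of a list of 22 storage proteins, pumps and regulators, 16 were listed, of which 2 were higher (12.5%) and 4 were lower (25%). The shares over all genes were 8.38% and 8.83%, and the difference was not tested. MTF1, the zinc-sensing transcription factor, was at 1.25 FPKM in sh-Control and 3.69 in sh-CRNDE, a change of 1.06. ACO1, an aconitase that also serves as an iron regulatory protein, was at 2.33 and 4.19 FPKM, a change of 0.64. The metallothioneins MT1F and MT1X, which bind zinc and copper, changed by -1.29 and -0.96, from 4.62 to 1.31 FPKM and from 11.7 to 5.54 FPKM. FTH1, the heavy chain of ferritin, changed by -1.14, from 253.1 to 114.0 FPKM, and NCOA4, the receptor that takes ferritin to lysosomes, by -0.74, from 88.8 to 52.7 FPKM. Metallothioneins and FTH1 have near-identical copies in the genome, so their levels are uncertain. TFRC, the transferrin receptor, was at 45.8 and 64.6 FPKM, a change of 0.49.

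Among carriers of monocarboxylates and other organic acids, 1 of 5 was lower and none was higher. SLC16A1, the lactate and pyruvate carrier MCT1, was at 46.6 FPKM in sh-Control and 20.8 in sh-CRNDE, a change of -1.13. It went from rank 5 to rank 13 among the carriers. The gene lies at chr1:112911847-112957593 on the minus strand. SLC16A3, the lactate carrier MCT4, was at 15.1 and 11.5 FPKM, a change of -0.37. The FPKM ratio of SLC16A1 to SLC16A3 was 3.08 in sh-Control and 1.81 in sh-CRNDE. BSG, the chaperone that both need to reach the cell surface, was at 73.9 and 60.0 FPKM, a change of -0.30. EMB, another partner of monocarboxylate carriers, was at 4.005 and 10.3 FPKM, a change of 1.17, and was the only one called among 6 listed partner proteins of a list of 10.

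Of the 12 carriers of glucose and other sugars, 1 was lower and none was higher, and the median change was 0.05. SLC2A1, the basal glucose carrier GLUT1, was at 13.0 FPKM in sh-Control and 12.4 in sh-CRNDE. SLC2A3, the high-affinity glucose carrier GLUT3, was at 4.96 and 7.25 FPKM, a change of 0.47, and the ratio of SLC2A1 to SLC2A3 was 2.61 and 1.72. SLC50A1, a sugar carrier of the SWEET family, was at 9.25 and 12.1 FPKM, a change of 0.35. The lower gene was SLC45A3, known as prostein and related to sucrose carriers, at 2.98 and 0.376 FPKM. Its change of -1.53 took it from rank 64 to rank 108 of the 110 carriers.

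None of the 5 carriers of nucleotide sugars in the SLC35A family, which supply the Golgi for glycosylation, passed 1.5-fold. SLC35A4 was at 9.47 FPKM in sh-Control and 8.42 in sh-CRNDE, and SLC35A1, the CMP-sialic acid carrier, at 7.49 and 8.68 FPKM. The SLC genes with another letter in place of A were counted for comparison, and 2 of 20 were higher and 2 lower, with a median change of -0.11. They were all in SLC35, namely SLC35G2 (0.181 and 1.35 FPKM) and SLC35B3 (3.50 and 7.26 FPKM) among the higher, and SLC35B4 (7.24 and 1.63 FPKM) and SLC35B2 (6.04 and 2.99 FPKM) among the lower.

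Carriers of nucleosides, nucleobases and nucleotides had a median of -0.40 over 6 genes, the lowest of the 10 substrate classes on this scale, of which 1 was higher and 2 were lower. With the median of each GC bin subtracted, as described with base composition, it was -0.25 and the fatty acid and bile acid class was lower at -0.27. SLC29A1, the equilibrative nucleoside carrier ENT1 through which cytarabine enters cells, was at 27.4 FPKM in sh-Control and 17.5 in sh-CRNDE, a change of -0.62. SLC17A9, the carrier that loads nucleotides into vesicles, was at 13.5 and 7.46 FPKM, a change of -0.78. SLC28A3, a sodium-coupled nucleoside importer, was at 1.204 and 2.40 FPKM, a change of 0.63. SLC43A3, a purine nucleobase carrier and the most abundant of the class, was at 74.97 and 61.7 FPKM, a change of -0.28. SLC29A2, the relative of SLC29A1 known as ENT2, was at 15.9 and 10.7 FPKM, a change of -0.53.

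Among 8 carriers of vitamins, cofactors and choline, 2 were lower and none was higher. SLC19A1, the reduced folate carrier that also takes up methotrexate, was at 8.58 FPKM in sh-Control and 3.43 in sh-CRNDE, a change of -1.11. In the annotation 23.2% of its transcript lies opposite exons of COL18A1, and the library kit does not mark strand, so reads of the shared stretch cannot be told apart. SLC52A2, a riboflavin carrier, was at 10.8 and 6.41 FPKM, a change of -0.67. SLC5A6, the sodium-coupled carrier of biotin and pantothenate, was at 23.5 and 21.8 FPKM, a change of -0.10.

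Of the 6 carriers in the fatty acid and bile acid families, 2 were lower and none was higher. SLC27A4, the fatty acid transport protein FATP4, was at 12.3 FPKM in sh-Control and 6.73 in sh-CRNDE, a change of -0.78. SLC10A3, a member of the bile acid carrier family, was at 3.65 and 2.08 FPKM, a change of -0.59. SLC27A2, which activates and takes up very long-chain fatty acids, was the most abundant of the class at 27.8 and 23.5 FPKM.

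Among 16 carriers of inorganic ions and pH, 1 was higher and 1 was lower, with a median of -0.20. SLC26A2, the sulfate carrier, was at 5.12 FPKM in sh-Control and 8.27 in sh-CRNDE, a change of 0.60. SLC12A9, of the cation-chloride cotransporter family, was at 6.90 and 3.92 FPKM, a change of -0.68. SLC20A1, the sodium-phosphate cotransporter PiT-1, was the most abundant at 65.7 and 60.4 FPKM, and SLC4A2, the chloride-bicarbonate exchanger AE2, was at 8.57 and 6.87 FPKM. Both of these were inside 1.5-fold. Of 7 carriers of organic cations, anions, amines and others, 1 was lower: SLC22A31, at 1.26 and 0.501 FPKM, a change of -0.59. SLC6A6, the taurine carrier, was at 6.52 and 6.94 FPKM, and SLC22A15 at 5.70 and 3.69 FPKM.

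Genes that work with the carriers were counted as well, beside shares over all genes of 8.38% higher and 8.83% lower. Among 4 listed subunits of the sodium pump, which sets the gradient that many carriers use, ATP1B3 was higher, at 21.2 FPKM in sh-Control and 58.3 in sh-CRNDE, a change of 1.42. Of 20 genes of amino acid sensing at the lysosome, 1 was higher and 1 lower. The higher gene was RRAGA, a GTPase that recruits mTORC1 to the lysosome, which was listed at 0 in sh-Control, was at 2.56 FPKM in sh-CRNDE and has a single exon. LAMTOR5, a subunit of the Ragulator scaffold, was at 17.96 and 6.199 FPKM, a change of -1.40. Of 17 ABC transporters, which pump their substrates with ATP, 1 was higher and 1 was lower. ABCB10, a mitochondrial transporter of erythroid heme synthesis, changed by 0.66 from 26.4 to 42.3 FPKM, and ABCA2, a lysosomal lipid transporter, by -0.98 from 13.3 to 6.27 FPKM.

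The called carriers differed in base composition, which was not part of the rule. The median GC content of the canonical transcript was 40.7% for the 7 higher genes, 61.2% for the 15 lower genes and 51.1% for the 88 others. Across the 110 genes the Pearson correlation of GC content with the change was -0.37, and across 9366 genes whose mean reached 1 FPKM it was -0.25. The points share both libraries, so these are descriptions. All matched genes were put in 20 bins of GC content, and the median change of each bin was taken over the genes whose mean reached 1 FPKM. This median fell from 0.22 in the bin of 27.8 to 36.9% GC to -0.39 in the bin of 64.1 to 75.7% GC. When the median of its own bin was subtracted from each gene, 19 carriers passed 1.5-fold, 6 higher and 13 lower. Of all genes, 7.73% were then higher and 6.96% lower. Among the 19 carriers were 14 of the 22. The 8 that were not were SLC10A3, SLC12A9, SLC22A31, SLC26A2, SLC27A4, SLC28A3, SLC29A1 and SLC52A2. With this subtraction the change was -1.99 for SLC7A5, -1.30 for SLC16A1, 0.91 for SLC30A1 and 1.21 for SLC48A1. The part of base composition was not tested for any of these changes, whether or not a gene stayed past 1.5-fold.

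MicroRNAs of the miR-181 family have been studied with CRNDE in this disease, so the members' 3′ UTRs were searched for their seed match. The mature sequences from RefSeq are shown 5′ to 3′ with the seed, bases 2 to 8, in capitals, because all 4 share it.
hsa-miR-181a-5p: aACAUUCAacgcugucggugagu
hsa-miR-181b-5p: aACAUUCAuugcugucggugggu
hsa-miR-181c-5p: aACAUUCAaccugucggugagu
hsa-miR-181d-5p: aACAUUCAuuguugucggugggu

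The match to this seed, TGAATGT, was in the canonical 3′ UTR of 30 of the 109 carriers with one (27.5%), and in 2132 of 9946 protein-coding genes (21.4%). The median change was -0.09 for the 30 carriers with a match and -0.15 for the 79 without. Of those with a match 2 were higher and 2 lower, and of those without 5 were higher and 13 lower. Over all protein-coding genes the medians were 0.05 with a match and -0.03 without, with 190 higher and 145 lower of 2132, and 535 higher and 682 lower of 7814. The carriers' 3′ UTRs with a match were longer, with a median of 3567 bases against 1066. Over all protein-coding genes the medians were 2957.5 and 958 bases. The 4 called carriers with a match were SLC19A1, SLC28A3, SLC39A10 and SLC7A2. The sites of the first 3 are shown in 23 bases of GRCh38 on the gene's strand, with the match in capitals.
SLC19A1, chr21:45512596-45512618, minus strand: ggggcaggTGAATGTcagcatca
SLC28A3, chr9:84276867-84276889, minus strand: acagacacTGAATGTgaaaaagg
SLC39A10, chr2:195735965-195735987, plus strand: gtaagttcTGAATGTtcacattg

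The promoters of the called carriers were read for 3 short motifs, on both strands of the 250 bases before the start that RefSeq gives (GRCh38.p14). A window was there for 85 of the 110 carriers. A gene counted once if any of its windows had a match. The E-box CACGTG, which MYC and other basic helix-loop-helix factors can bind, was found for 16 of 85 carriers (18.8%). Among them were 2 of 6 higher and 3 of 11 lower genes, against 11.8% of listed genes with a window. The core of the metal response element, TGCACNC or TGCGCNC, which MTF1 can bind, was found for 34 carriers (40%). Among them were 3 of 6 higher and 6 of 11 lower genes, against 40.6% of listed genes. The amino acid response element TGATGCAA was found for 2 carriers (2.35%), none of them called, against 0.630% of listed genes. Counted per single window and not per gene, the 3 motifs were in 6.34%, 24.8% and 0.772% of all promoter windows, so these shares are not alike in unit. In the carriers' promoters 1 E-box match overlapped a metal element match. A match is a description of the letters and not of binding.

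The windows around the matches are shown for SLC7A5 and SLC26A2 (E-box in capitals) and for SLC30A1 and SLC39A3 (metal element core in capitals), each on the gene's strand, as examples of each motif in a higher and a lower gene, chosen from the called carriers with a match.
SLC7A5, chr16:87869592-87869677, minus strand: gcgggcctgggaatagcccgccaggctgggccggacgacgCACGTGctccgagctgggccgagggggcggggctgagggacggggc
SLC26A2, chr5:149960694-149960757, plus strand: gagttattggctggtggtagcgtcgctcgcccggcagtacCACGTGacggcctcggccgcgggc
SLC30A1, chr1:211579164-211579250, minus strand: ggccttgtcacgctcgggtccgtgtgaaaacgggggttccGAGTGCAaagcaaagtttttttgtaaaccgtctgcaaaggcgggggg
SLC39A3, chr19:2740158-2740244, minus strand: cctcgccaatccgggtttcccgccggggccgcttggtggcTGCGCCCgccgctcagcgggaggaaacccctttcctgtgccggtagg

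The match began 130 bases before the start of SLC7A5, 24 before that of SLC26A2, 49 before that of SLC30A1, where it reads on the opposite strand, and 128 before that of SLC39A3. Metal element matches were thus in the promoter of a zinc carrier that was higher and of one that was lower.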

How the data were processed

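RNA of 2 NB4 libraries (TruSeq RNA v2, MiSeq) was measured, 1 per group. Per the submitters' processing notes the authors used fastp 0.20.0, HISAT2 2.0.4 and StringTie 1.2.3, with GRCh38, and deposited FPKM per gene. Every listed gene was above 0.5 FPKM in at least 1 library. From these values log2(FPKM + 1) was computed with Python 3.11.15 and pandas 2.3.3, and genes past 1.5-fold were called, with no test. The members and lists were chosen with earlier results of these data known. Named are all carriers past 1.5-fold, the 2 with the highest mean FPKM in each class, and partner subunits. Other carriers, and TFRC, MPO, CEBPE and MT-RNR2, were chosen after their values were seen. Genes were matched by Ensembl ID to GENCODE 44 (11508 of 11619, all 110 carriers), which gave coordinates, exons and GC content. Alternatives were other pseudocounts, scalings, thresholds, a low-value filter and subtraction of GC bin medians.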

Additional observations from a re-analysis of the deposited data

How the results depend on the processing

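With 1 library per group no error can be given, and the depth behind low FPKM values is unknown. The count of 22 carriers past 1.5-fold (7 higher, 15 lower) rose to 38 (28 lower) with a pseudocount of 0.1, to 41 (12 higher, 29 lower) with 0.01, and to 38 (28 lower) when each library was rescaled to the same sum, without mitochondrial, rRNA and small RNA genes. Of all genes, 13.6% were higher and 14.8% lower with 0.1, 14.2% and 15.7% with 0.01, and 12.8% and 14.5% with rescaling. All 22 were kept under these 3 settings, which weigh low values more by construction, and SLC11A2 and SLC22A15 were among those added as lower. Past 2-fold there were 8 (2 higher, 6 lower), against 3.43% and 3.23% of all genes. SLC45A3 had a larger change than SLC7A5 with pseudocounts of 0.1 and 0.01 and with rescaling (-2.69, -2.95 and -2.60 against -2.28, -2.28 and -2.29). The lowest class median was that of organic cations and others under these 3 settings (-0.61, -0.63 and -0.62), and that of fatty and bile acids with GC medians subtracted (-0.27) and with the filter of 1 FPKM (-0.42). Median centring gave 21 (7 higher, 14 lower) and quantile normalisation 20 (7 higher, 13 lower). Subtraction of GC medians gave 19, and a filter of 1 FPKM in both libraries 19 of 86, each with 6 higher and 13 lower. Of all genes, 8.54% were higher and 8.55% lower with centring, and 8.55% and 8.60% with quantile normalisation. These shares were 7.73% and 6.96% with GC medians subtracted, and 6.67% and 7.45% with the filter. The median change of the carriers lay between -0.17 and -0.10, and none of the 22 changed direction under these settings. Of named carriers inside 1.5-fold, SLC16A3, SLC2A1, SLC35A4, SLC4A2 and SLC5A6 went from a value below 0 to one between 0.01 and 0.04 with GC medians subtracted, and SLC3A2 to -0.01 with quantile normalisation. The 14 carriers past 1.5-fold under every scaling and pseudocount tried were SLC7A5, SLC45A3, SLC39A3, SLC16A1, SLC19A1, SLC1A4, SLC17A9, SLC39A6, SLC7A2, SLC30A1, SLC48A1, SLC30A6, SLC39A8 and SLC39A10. The filter of 1 FPKM, which is not among these settings, left out SLC45A3 (0.376 FPKM in sh-CRNDE), SLC48A1 (0.723 in sh-Control) and SLC22A31 (0.501 in sh-CRNDE). No paired analysis was possible because each group has 1 library.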
